A study of Mus musculus with 12 samples.

Results

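The genes described here are type I interferon-stimulated genes, 43 mouse genes that cells switch on in response to type I interferon, followed in a mouse acute myeloid leukemia while the transcription factor PU.1 returned over 6 days. The 43 symbols were given as a list and matched to the Entrez identifiers of the count files, and all 43 were among the 27179 genes counted and passed the filter on low counts that left 12057 genes for testing. Ifi208 and Ifit3b, at 2.51 CPM or less in each untreated library, passed it through their later libraries. RNA sequencing had been done on AML246 cells, a cytogenetically normal p53-/- leukemia that carries a hairpin against PU.1 linked to GFP, on a C57BL/6 background, sorted from the bone marrow of leukemic recipients. Doxycycline (Dox) stops the hairpin in these cells. Untreated cells were sorted as GFPhigh, cells after 2 days of Dox as GFPhigh-mid, after 4 days as GFPmid and after 6 days as GFPlow, with 3 libraries in each of the 4 groups. All groups shared the p53-/- genotype, the hairpin, the strain and the single leukemia AML246. The names of all 12 deposited files also carry Rag1-/-, a genotype that blocks lymphocyte development, and the labels do not say whether it belongs to the hosts or to the leukemia. No source used here gives the ages of the mice or the promoters that drive the hairpin and the Dox switch. Time on Dox and sort gate changed together and cannot be told apart, and neither can hairpin shut-off and an effect of Dox itself, since no cells without the hairpin received Dox. Replicates are called technical in the titles and mice in the design text, and nothing further says whether they came from separate animals, so that p-values measure a spread between samples that may be technical.

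Type I interferons are secreted proteins that signal through a receptor made of IFNAR1 and IFNAR2 and the kinases JAK1 and TYK2. STAT2 is phosphorylated there and joins IRF9 in the complex ISGF3, which binds the interferon-stimulated response element (ISRE) in the promoters of its target genes. The proteins made include sensors of foreign nucleic acid, enzymes and membrane proteins that block viral replication or entry, and regulators that feed back on the pathway. Many of these genes are also expressed at a basal level in myeloid cells. PU.1, the product of Spi1, is an ETS-family factor of myeloid and B cells that can bind DNA together with IRF4 or IRF8 at composite ETS-IRF elements.

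The deposited libraries held 4918920 to 7356166 counts each, and levels are given as CPM, each count divided by its library's size (the total over the tested genes times the TMM factor) and set to the usual fixed total. In a library, 3 counts corresponded to 0.408 to 0.610 CPM of its total. The hairpin's target Spi1 measured 54.2, 67.5 and 65.9 CPM in the untreated libraries, 107, 98.8 and 123 at day 2, 244, 267 and 269 at day 4, and in the day 6 libraries 497, 439 and 438, in the order of replicates 1, 2 and 3 that is used throughout. It was higher in every library of each later group than in every library of the group before. Of the 10 myeloid blast markers, 10 were tested and 6 were lower and 2 higher at day 6 than in untreated cells. Of all tested genes, 32.9% were lower and 35.0% higher in that comparison. The markers of mature neutrophils, at 453 to 1284 CPM in sum in untreated libraries, reached 39945 to 85914 CPM at day 6. In bulk RNA, fewer cells of a type and less RNA per cell cannot be told apart. The TMM factors were 1.02 to 1.15 in the other groups and 0.737 to 0.847 at day 6. Scaling by library totals alone in place of TMM moved the median log2 change of all genes by -0.51 and upper-quartile scaling by -0.25 at day 6 against untreated, and by -0.12 and -0.09 at day 4. Changes below are relative to the TMM scale.

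The summed level of the 43 genes was 0.955 times the untreated mean at day 2, 1.84 times at day 4 and 3.68 times at day 6. In the untreated libraries the sum was 3047, 5204 and 3529 CPM. At day 2 it was 3987, 4269 and 2994 CPM. These ranges overlap. At day 4 it was 7281, 7408 and 6958 CPM, and at day 6 it was 12885, 17709.8 and 12777 CPM. Every day 4 library lay above every untreated and day 2 library, and every day 6 library above every day 4 library. The group means were 3926 ± 1132 CPM (SD, n = 3) in untreated cells, 3750.0 ± 669.9 at day 2, 7216 ± 231.8 at day 4 and 14457 ± 2817 at day 6. Without Ifitm3, Sp100 and Trim30a, the 3 members with the highest mean CPM, the ratios to untreated were 0.942, 1.81 and 3.84. Scaled by library totals, the day 6 ratio was 2.61, and with upper-quartile factors 3.11. The direction at day 4 and day 6 was the same under each of these scalings. Against the mean of untreated replicates 1 and 3, without the high replicate 2, the ratios were 1.14 at day 2, 2.19 at day 4 and 4.40 at day 6. Whether the day 2 ratio lay below or above 1 thus depended on that library. No test was made of the sum, because its members were chosen together. Of the summed rise to day 6, Ifitm3 held 9.01%, Samd9l 6.91% and Ifitm6 5.93%, and the 7 genes with the largest shares held 41.5%.

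**Figure D1:**
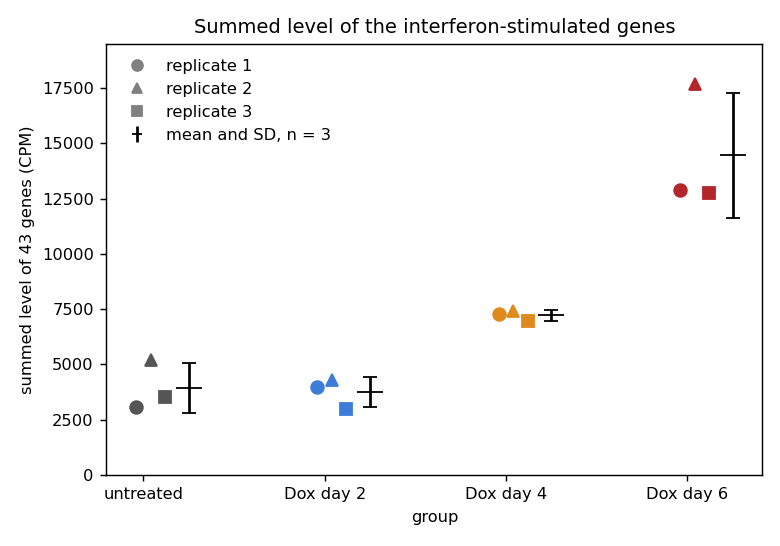
Summed level of the 43 interferon-stimulated genes in CPM (vertical axis, from 0) in each library of the 4 groups (horizontal axis), with the mean and SD of 3 libraries as bars. The untreated and day 2 libraries lie between 2994 and 5204 CPM, the day 4 libraries between 6958 and 7408 and the day 6 libraries between 12777 and 17709.8.

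Individual libraries stood apart within their groups for these genes. Replicate 2 of the untreated cells was the highest of the 3 libraries for 42 of the 43 genes, with a median of 1.77 times the mean of the other 2, while it was the highest of 3 for 38.1% of all tested genes. Replicate 2 of day 6 was the highest for 38 of the 43, at a median of 1.57 times, against 41.1% of all tested genes. Replicate 3 of day 2 was the lowest for 34 of the 43, at 0.684 times the other 2, against 37.1% of all tested genes. In that group replicate 2 was the highest for 32 of the 43, at 1.27 times, against 34.9% of all tested genes. The day 4 libraries were even, with the coefficient of variation of the sum at 3.21%, against 28.8% in untreated cells, 17.9% at day 2 and 19.5% at day 6. For the single genes the median coefficient of variation was 37.8% in untreated cells, 24.9% at day 2, 6.59% at day 4 and 28.1% at day 6, where all tested genes had 10.5%, 8.87%, 8.91% and 16.1%. Sums of marker genes of other cell types also differed between libraries, some of them in the libraries that stood apart and some in others. Day 6 replicate 2 had a lower sum of mature neutrophil markers, 39945 CPM against 85914 and 73164, and a higher sum of the 10 monocyte and macrophage markers, 7728 against 4036 and 4191. It also held more of the 6 T cell markers, 46.5 CPM in sum against 3.63 and 2.73, of which none passed the filter on low counts. Untreated replicate 2 had 1284 CPM of neutrophil markers against 453 and 576. The monocyte and macrophage sum of that library, 7014 CPM, was close to the 6911 of replicate 3, with 5401 in replicate 1. Day 2 replicate 3, the low library, also had the highest neutrophil marker sum of its group, 1238 CPM against 468 and 826, and the lowest monocyte and macrophage sum, 5558 against 7252 and 7393. The 6 B cell markers summed to 84.2 CPM in untreated replicate 1 against 8.49 and 10.8 in replicates 2 and 3. Markers of eosinophils, basophils and mast cells summed to 54.9, 826 and 454 CPM at day 4, where the 43 genes were even. The 5 markers of plasmacytoid dendritic cells, which make much type I interferon, summed to at most 4.05 CPM in a library and none was tested. The part of these cells in the levels of the interferon-stimulated genes was not tested.

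**Figure D2:**
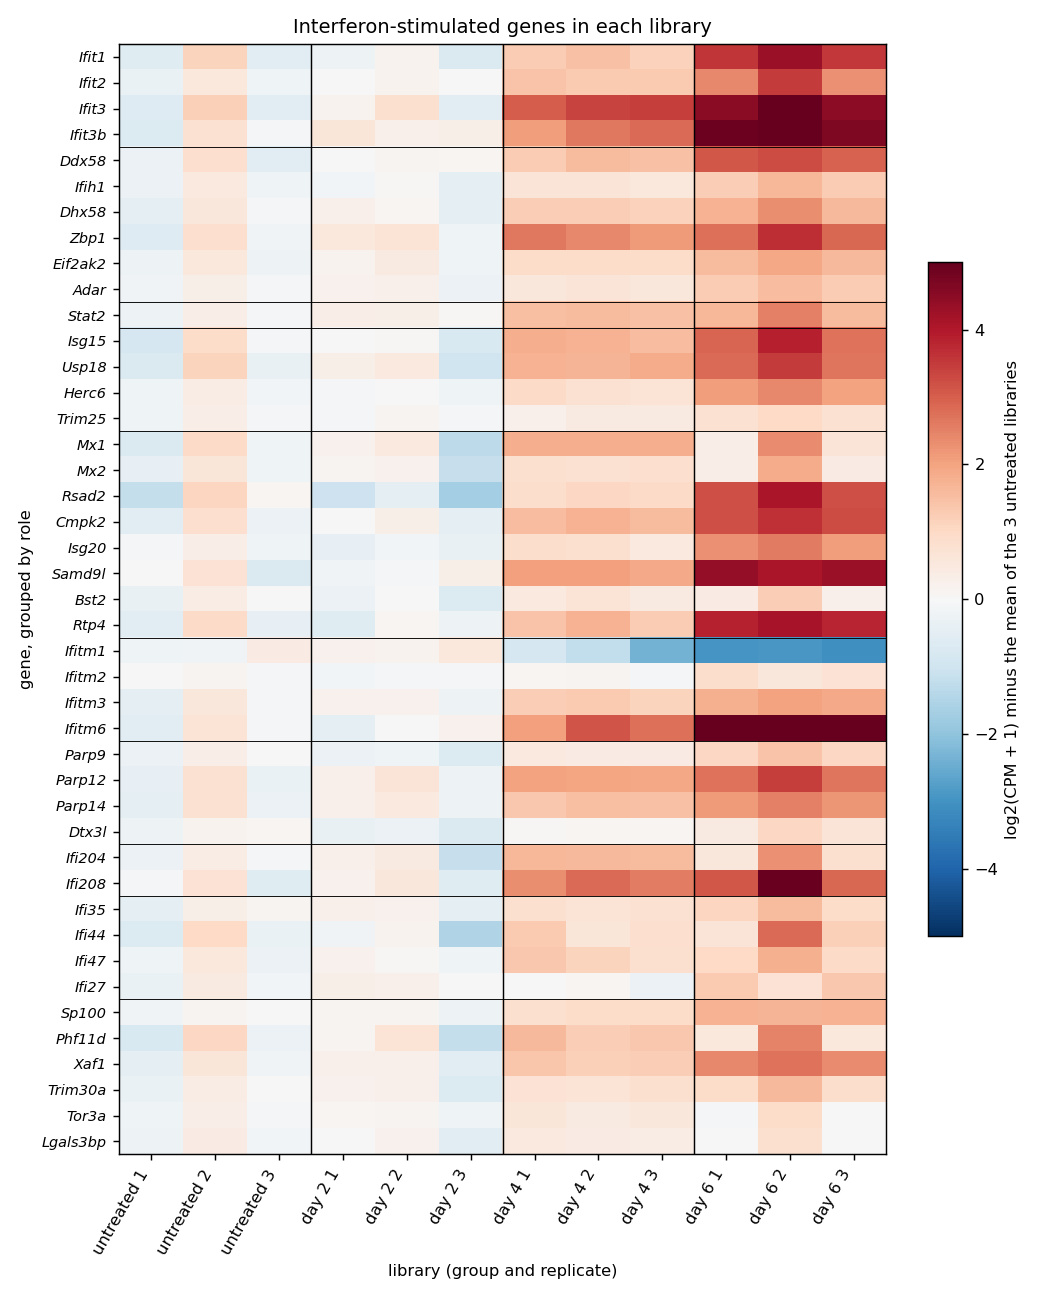
Each row is 1 of the 43 genes grouped by role and each column 1 library, and the colour is log2(CPM + 1) minus the mean of the 3 untreated libraries on a scale that saturates at 5 above and below. Rows are near white at day 2, mostly orange at day 4 and mostly red at day 6, Ifitm1 turns blue, and the second untreated and the second day 6 columns are darker than their neighbours for most genes.

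The first comparison asked whether 2 days of Dox had moved these genes. None of the 43 was called at day 2, where called means a Benjamini-Hochberg adjusted p under 0.05 over all 12057 genes in edgeR's quasi-likelihood test. Of all genes, 1.05% were called higher and 0.406% lower. With the unadjusted p under 0.05 there were 0 genes higher and 3 lower, and DESeq2 and limma voom also called 0. The median log2 fold change of the 43 was -0.09, from -1.31 for Rsad2 to 0.44 for Ifit3b, and the lowest adjusted p was 0.191 for Dtx3l. Without day 6 replicate 2 in the fit, Dtx3l was called lower at day 2 (adjusted p = 0.0411). Leaving out untreated replicate 2 gave no call at day 2, but turned the changes of many of the genes from below to above 0. These included Ifit1 (0.33), Ifit3 (1.02), Usp18 (0.60), Ddx58 (0.50), Cmpk2 (0.40) and Samd9l (0.37). Among those that stayed below 0 were Rsad2 (-0.63), Dtx3l (-0.37), Parp9 (-0.22), Isg20 (-0.16) and Bst2 (-0.12). The median of -0.09 above is with that library in the fit. Without both untreated replicate 2 and day 6 replicate 2, Ddx58 and Stat2 were called higher at day 2 (adjusted p = 0.0285 and 0.0285).

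By day 4 most of the genes were higher. Against untreated cells 29 were called higher and 1 lower, where 22.1% of all genes were called higher and 20.2% lower. The median log2 fold change of the 43 was 1.09, against -0.01 for all genes, and 21 were at least 2-fold higher, as were 8.66% of all genes. In 35 of the 43 all 3 day 4 libraries were above all 3 untreated libraries, which was so for 29.2% of all genes. Against day 2, 33 were called higher and 1 lower (15.0% and 10.2% of all genes), with a median log2 fold change of 1.24. A rise of at least 2-fold was seen in 24 of the 43 and in 5.36% of all genes. In that comparison all day 4 libraries were above all day 2 libraries for 40 of the 43, against 25.2% of all genes. The call against day 2 was the one most open to single libraries, since 14 of its 34 calls were lost when some library was left out, and without day 2 replicate 3, the low library, 19 genes were called higher. When untreated replicate 2 was left out, 5 more genes, Ifit1, Rsad2, Parp9, Phf11d and Trim30a, were called higher at day 4.

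At day 6 the changes were larger. Against untreated cells 37 of the 43 were called higher and 1 lower, where 35.0% of all genes were called higher and 32.9% lower, and the median log2 fold change was 1.83. In 33 genes the rise was at least 2-fold, as in 16.9% of all genes. The libraries did not overlap in 35 genes that were higher, against 34.3% of all genes. From day 4 to day 6, 28 genes were called higher and 1 lower (23.6% and 22.6% of all genes), with a median log2 fold change of 0.80, and 17 were at least 2-fold higher, as were 8.19% of all genes. All day 6 libraries were above all day 4 libraries in 32 genes, against 26.6% of all genes. The single gene called lower in each of these comparisons was Ifitm1. Against untreated cells, 28 genes were called higher at both day 4 and day 6. Another 9, Ifit1, Rsad2, Bst2, Ifitm2, Parp9, Dtx3l, Ifi44, Ifi27 and Trim30a, were called at day 6 and not at day 4. In both steps, from day 2 to day 4 and from day 4 to day 6, 25 genes were called higher. Mx1 was the gene called at day 4 only, and Mx2, Phf11d, Tor3a and Lgals3bp were called against untreated at no day with all libraries in the fit. Of these, Mx2, Phf11d and Tor3a were called at some day when a single library was left out. The comparisons with untreated cells share the untreated libraries and are not independent of each other. Without day 6 replicate 2, Bst2, Ifi204 and Ifi44 were not called at day 6, and from day 4 to day 6 Dhx58, Usp18, Ifitm3, Parp12 and Parp14 were not called and Tor3a was called lower. Under library-total scaling 7 of the 37 day 6 calls were lost, those of Trim25, Bst2, Ifitm2, Dtx3l, Ifi204, Ifi44 and Trim30a, and 17 genes were called higher from day 4 to day 6. Of all 12057 genes, that scaling gave 1331 higher and 6263 lower from day 4 to day 6, where TMM gave 2851 and 2726.

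**Figure D3:**
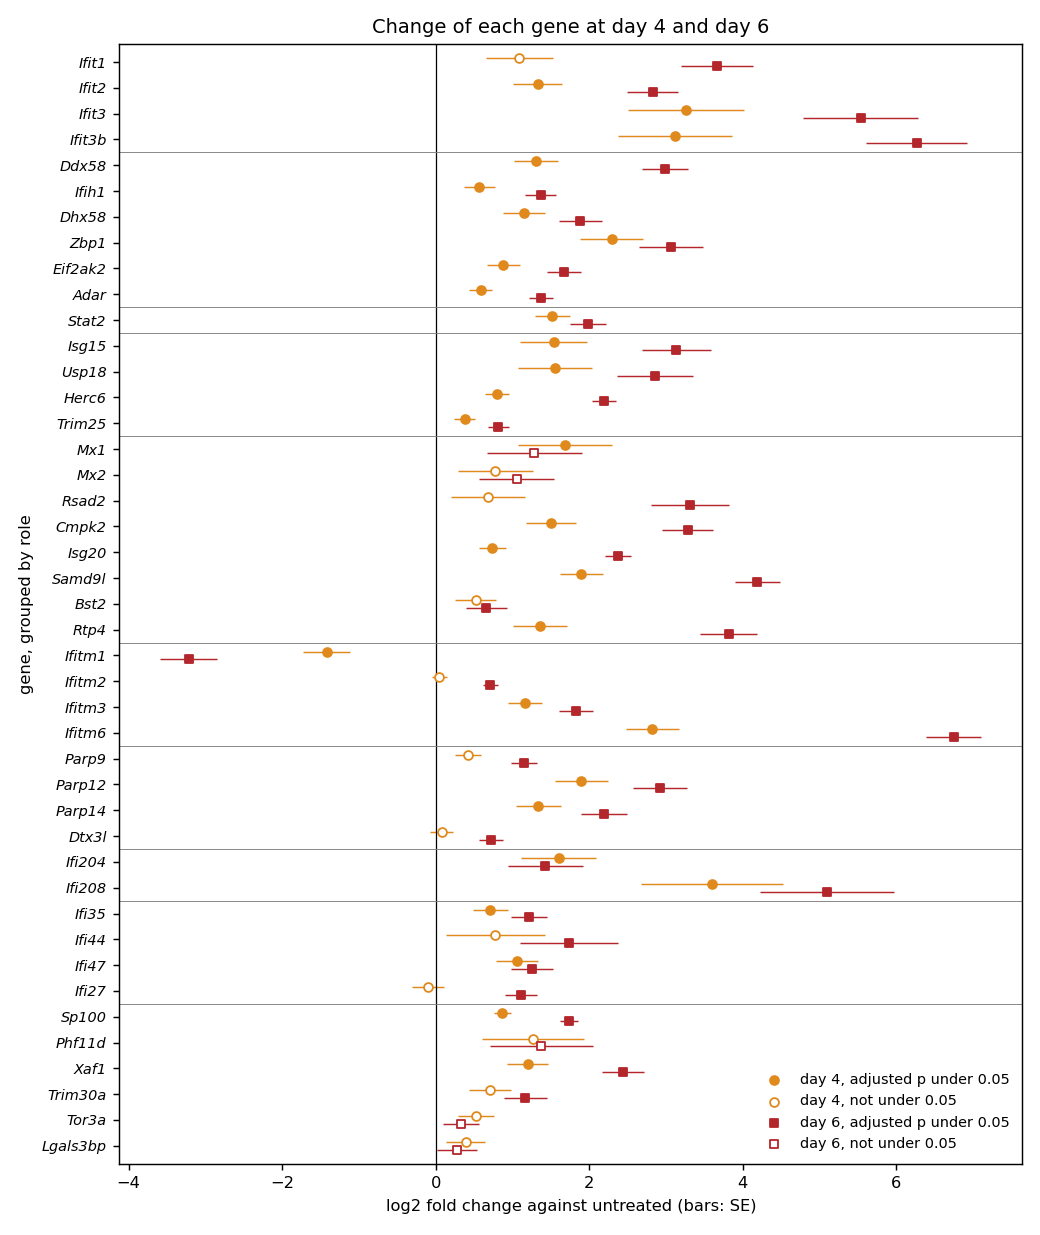
Log2 fold change against untreated cells (horizontal axis, bars are SE) at day 4 (circles) and day 6 (squares) for each of the 43 genes (vertical axis, grouped by role), filled where the adjusted p was under 0.05. Most genes lie further right at day 6 than at day 4, Ifitm1 alone lies clearly left of 0, and Mx1, Ifi204, Tor3a and Lgals3bp lie further left at day 6 than at day 4.

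Signalling was represented by Stat2, whose product joins IRF9 in ISGF3. Stat2 measured 68.4, 103 and 75.0 CPM in the untreated libraries, 103, 100.3 and 83.9 at day 2, 234, 247 and 225 at day 4, and in the day 6 libraries 260.4, 466 and 247. Its day 2 libraries overlapped the untreated ones, all later libraries were above both, and day 6 replicate 2 was well above the other day 6 libraries, which were close to day 4. The log2 fold change was 1.52 ± 0.23, adjusted p = 0.00032 at day 4 and 1.98 ± 0.23, adjusted p = 1.42e-05 at day 6, and from day 4 to day 6 it was 0.47 ± 0.22, adjusted p = 0.107, which was called without day 6 replicate 3 (adjusted p = 0.0461). Irf9, which is not on the list, rose too. It went from 126 ± 22.4 CPM (SD, n = 3) in untreated cells to 197 ± 14.7 at day 4 and 384 ± 12.9 at day 6, called higher at both (adjusted p = 0.00463 and 1.73e-06). Irf7, the factor that amplifies interferon production, measured 43.3, 142 and 62.8 CPM in the untreated libraries, 78.1, 95.7 and 43.4 at day 2, 284, 280.4 and 265 at day 4, and in the day 6 libraries 589.9, 1062 and 525, with a log2 fold change of 3.14 ± 0.46, adjusted p = 0.000136 at day 6, which was 3.77 without untreated replicate 2. Without day 6 replicate 2 the day 6 change of Irf7 was 2.75. Its step from day 4 to day 6 (1.39, adjusted p = 0.0221) was then 1.01 and not called (adjusted p = 0.103). Irf7 shared the high second library of untreated cells and of day 6, whereas at day 6 Irf9 did not.

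Sensors of nucleic acid and RNA-binding enzymes rose together, and 6 of 6 were called higher at day 4 and at day 6. Ddx58 encodes RIG-I, a sensor of viral RNA. It measured 33.2, 75.0 and 27.6 CPM in the untreated libraries, 39.9, 45.0 and 43.9 at day 2, 99.3, 123 and 114 at day 4, and in the day 6 libraries 357, 397 and 327. The day 4 libraries were all above the untreated and day 2 libraries, and the day 6 libraries were close to each other and about 7.96 times the untreated level. Its log2 fold change was 1.31 ± 0.29, adjusted p = 0.0043 at day 4 and 2.99 ± 0.30, adjusted p = 6.29e-06 at day 6. Zbp1, a sensor of Z-form nucleic acid that can start cell death, measured 26.1, 74.5 and 36.1 CPM in the untreated libraries, 60.4, 66.4 and 35.0 at day 2, 261, 223 and 186 at day 4, and in the day 6 libraries 285, 549 and 306. All its day 4 libraries were above all earlier ones, and day 6 replicate 2 was well above the other 2. Zbp1 had the largest change of this group at both days (at day 6 not without day 6 replicate 2, where it was 2.70 and Ddx58 2.91), 2.29 ± 0.41, adjusted p = 0.00132 and 3.06 ± 0.42, adjusted p = 7.93e-05, but most of it was in place by day 4 and the step to day 6 was not called (adjusted p = 0.123, or 0.0479 without untreated replicate 2). Dhx58, which encodes the RIG-I relative LGP2, went from 72.3 ± 27.3 CPM in untreated cells to 160.4 ± 6.78 at day 4 and 266 ± 74.7 at day 6. Ifih1, encoding the RNA sensor MDA5, went from 122 ± 37.7 to 181 ± 10.4 and 315 ± 56.0 CPM. Its day 4 call (adjusted p = 0.0397) was lost without untreated replicate 1 or 3, day 2 replicate 1 or any day 4 replicate (adjusted p = 0.0535 to 0.146). Eif2ak2, the kinase PKR that halts translation, rose 3.19-fold to day 6. Adar, which edits adenosine in double-stranded RNA and so lowers its detection, rose 2.58-fold from an untreated level of 192 ± 35.3 CPM. In Dhx58 the step from day 4 to day 6 (adjusted p = 0.0438) was lost when any 1 of 7 libraries was left out, untreated replicate 3, day 2 replicate 2, each day 4 replicate and day 6 replicates 1 and 2 (adjusted p = 0.057 to 0.187).

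The IFIT genes encode RNA-binding proteins that block translation of viral messages, and 4 of 4 were called higher at day 6 and 3 of 4 at day 4. They lie side by side on chromosome 19, Ifit2 at chr19:34550550-34576534, Ifit3 at chr19:34583119-34588982, Ifit3b at chr19:34607530-34613403 and Ifit1 at chr19:34640889-34650009 (GRCm38). Ifit3 measured 2.13, 10.3 and 2.44 CPM in the untreated libraries, 4.56, 7.69 and 2.36 at day 2, 39.5, 50.7 and 53.7 at day 4, and in the day 6 libraries 113, 469.8 and 110.1. The low levels in untreated and day 2 cells overlapped, the day 4 libraries were all higher, and day 6 replicate 2 was 4.21 times the mean of the other 2. The log2 fold change was 3.26 ± 0.75, adjusted p = 0.00588 at day 4 and 5.53 ± 0.75, adjusted p = 8.04e-05 at day 6, and without day 6 replicate 2 it was 4.48 with an adjusted p of 6.96e-05. Ifit3b, a near copy of Ifit3, measured 0.284, 2.51 and 1.01 CPM in the untreated libraries, 2.13, 1.46 and 1.57 at day 2, 7.95, 12 and 13.7 at day 4, and in the day 6 libraries 61.4, 182 and 52.5, with 2, 18 and 7 counts in the untreated libraries. Its log2 fold change of 6.26 ± 0.66, adjusted p = 1.19e-05 at day 6 was the largest of the family. The authors' counting could split or drop reads that both Ifit3 and Ifit3b could give, so their separate values are uncertain. Ifit1 had 22.8, 76.8 and 24.1 CPM in the untreated libraries, 28.9, 39.5 and 20.8 at day 2, 86.9, 97.7 and 79.0 at day 4, and in the day 6 libraries 429, 721 and 421. Here untreated replicate 2 reached nearly the day 4 level, and the change at day 4 was not called (1.09 ± 0.44, adjusted p = 0.069), while at day 6 it was 3.66 ± 0.46, adjusted p = 4.74e-05. Without untreated replicate 2 the day 4 change of Ifit1 was 1.90 with an adjusted p of 0.000789. Leaving out that library also moved Ifit3 to 4.38 at day 4 and 6.65 at day 6, Ifit3b to 4.08 and 7.23, and Ifit1 at day 6 to 4.48. Without day 6 replicate 2 Ifit3b was 5.46 and Ifit1 3.36 at day 6, and the steps from day 4 to day 6 were 1.22 for Ifit3 and 2.34 for Ifit3b. Ifit1 and Ifit3b overlap the annotated gene Ifit1bl1. Ifit2 rose from 34.7 ± 12.2 CPM in untreated cells to 87.3 ± 4.21 at day 4 and 246 ± 123 at day 6.

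ISG15 is a ubiquitin-like protein that is attached to other proteins, and 4 of 4 genes of its system were called higher at day 4 and day 6. Isg15 measured 16.6, 58.9 and 29.7 CPM in the untreated libraries, 30.7, 32.0 and 17.8 at day 2, 111, 104 and 90.9 at day 4, and in the day 6 libraries 240.3, 474.96 and 210.1. The day 4 libraries were even and above all earlier ones, and day 6 replicate 2 had 2.11 times the level of the other 2. Its log2 fold change was 1.54 ± 0.44, adjusted p = 0.017 at day 4 and 3.14 ± 0.45, adjusted p = 0.000122 at day 6, and without untreated replicate 3 the day 4 call was lost (adjusted p = 0.0567). Usp18, which removes ISG15 from proteins and damps signalling at IFNAR2, had 13.2, 49.6 and 17.1 CPM in the untreated libraries, 27.5, 31.7 and 10.7 at day 2, 76.4, 75.5 and 83.5 at day 4, and in the day 6 libraries 164, 265 and 149.5. It shared the high untreated replicate 2, and its changes were 1.56 ± 0.48, adjusted p = 0.0249 at day 4 and 2.86 ± 0.49, adjusted p = 0.000416 at day 6. Without untreated replicate 2 the changes were 2.14 and 3.74 for Isg15 and 2.37 and 3.67 for Usp18. Without day 6 replicate 2 the day 6 changes were 2.68 for Isg15 and 2.55 for Usp18. The day 4 call of Usp18 was lost without untreated replicate 1 or 3 or day 4 replicate 3 (adjusted p = 0.0619 to 0.0838). Its step from day 4 to day 6 was lost without any day 4 replicate or day 6 replicate 1 or 2 (adjusted p = 0.0644 to 0.135). Herc6, the main ISG15 ligase of mice, was steadier between replicates, with 42.6 ± 10.2 CPM in untreated cells, 74.0 ± 6.98 at day 4 and 194 ± 28.7 at day 6 (log2 fold change 2.19 ± 0.16, adjusted p = 1.77e-07). Trim25, a ubiquitin ligase that acts on RIG-I, showed the smallest called change of the list at day 4, 0.38 ± 0.13, adjusted p = 0.0367, and went from 214 ± 43.6 CPM to 377 ± 34.4 at day 6. That day 4 call was lost without untreated replicate 1 or 3, day 2 replicate 1 or day 4 replicate 2 or 3 (adjusted p = 0.0501 to 0.153), and under upper-quartile and library-total scaling.

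Among 8 further antiviral effectors, 5 were called higher at day 4 and 6 at day 6, and the exceptions at day 6 were Mx1 and Mx2. Samd9l, which restricts viruses and cell growth, measured 38.4, 64.3 and 23.4 CPM in the untreated libraries, 33.9, 37.5 and 47.8 at day 2, 162, 163 and 147 at day 4, and in the day 6 libraries 830.4, 680.4 and 798. All day 4 libraries were above all earlier ones, the day 6 libraries were far above day 4, and day 6 replicate 2 was the lowest of its group. For Samd9l the log2 fold change was 1.90 ± 0.28, adjusted p = 0.000282 at day 4 and 4.19 ± 0.30, adjusted p = 3.77e-07 at day 6. Rtp4, an interferon-induced transporter of membrane receptors, measured 15.6, 45.4 and 17.0 CPM in the untreated libraries, 14.6, 24.3 and 19.1 at day 2, 64.1, 79.2 and 56.5 at day 4, and in the day 6 libraries 346, 421 and 334, and its day 6 libraries were close to each other and all above day 4. The day 6 change of Rtp4 was 3.82 ± 0.37, adjusted p = 5.83e-06. Rsad2 encodes viperin, an enzyme that makes a chain-terminating nucleotide, and lies beside the nucleotide kinase gene Cmpk2 on chromosome 12. Rsad2 had 20.4, 102 and 51.9 CPM in the untreated libraries, 22.8, 34.0 and 14.2 at day 2, 88.8, 97.8 and 93.5 at day 4, and in the day 6 libraries 456, 824 and 450.0. Its untreated libraries ran from the day 2 range to just above the day 4 range, and the day 4 change was not called (0.69 ± 0.48, adjusted p = 0.281), while the step from day 4 to day 6 was 2.63 ± 0.49, adjusted p = 0.00168. Without untreated replicate 2 the day 6 changes against untreated were 4.49 for Rtp4 and 4.00 for Rsad2, and the day 4 changes were 2.03 for Rtp4 and 1.37 for Rsad2, the latter then called (adjusted p = 0.0308). Without day 6 replicate 2 the day 6 changes against untreated were 3.71 for Rtp4 and 2.96 for Rsad2. Cmpk2 went from 51.7 ± 29.3 CPM to 147 ± 9.68 at day 4 and 503 ± 82.8 at day 6, with log2 fold changes against untreated of 1.502 ± 0.32, adjusted p = 0.00372 and 3.28 ± 0.34, adjusted p = 8.69e-06. Isg20, an exonuclease of RNA, rose 5.19-fold to day 6 (adjusted p = 1.94e-07).

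Mx1, a dynamin-like GTPase, was called higher at day 4 and not at day 6. It measured 13, 43.8 and 19.0 CPM in the untreated libraries, 26.3, 31.5 and 8.39 at day 2, 81.9, 81.4 and 80.9 at day 4, and in the day 6 libraries 28.4, 119.6 and 35.3. The 3 day 4 libraries were nearly equal and above every earlier library, while 2 of the day 6 libraries lay within the untreated range and replicate 2 was the highest of all. The log2 fold change was 1.68 ± 0.62, adjusted p = 0.049 at day 4 and 1.29 ± 0.62, adjusted p = 0.0886 at day 6. The day 4 call was lost under upper-quartile and library-total scaling and when any 1 of 8 libraries was left out (untreated replicate 1 or 3, day 2 replicate 1 or 2, any day 4 replicate or day 6 replicate 3, adjusted p = 0.0508 to 0.14). Without untreated replicate 2 and day 6 replicate 2 the step from day 4 to day 6 was -1.35 and called lower (adjusted p = 0.035). Without untreated replicate 2 alone the day 4 change was 2.35 and the day 6 change, 1.95, was called (adjusted p = 0.0232), while without day 6 replicate 2 the day 6 change was 0.33 (adjusted p = 0.645). Its neighbour Mx2, at 11.1 ± 4.85 CPM in untreated cells, 19.1 ± 0.748 at day 4 and 22.8 ± 15.6 at day 6, had the same high second library at day 6 and no call against untreated. Its day 6 change of 1.05 was called without untreated replicate 2 (1.47), day 2 replicate 3 (1.05), day 6 replicate 1 (1.32) or day 6 replicate 3 (1.30), with adjusted p = 0.0323 to 0.046, and was 0.31 without day 6 replicate 2 (adjusted p = 0.527). Bst2, which tethers virus particles to the cell surface, measured 112, 191 and 147 CPM in the untreated libraries, 120.1, 146 and 90.8 at day 2, 206, 238 and 202 at day 4, and in the day 6 libraries 194, 343 and 173. Day 6 replicates 1 and 3 lay near the highest untreated library and below day 4, and the day 6 call (0.66 ± 0.27, adjusted p = 0.0482) was lost under upper-quartile and library-total scaling and without untreated replicate 1 or 3, day 2 replicate 1, any day 4 replicate or day 6 replicate 2 (adjusted p = 0.056 to 0.288).

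**Figure D4:**
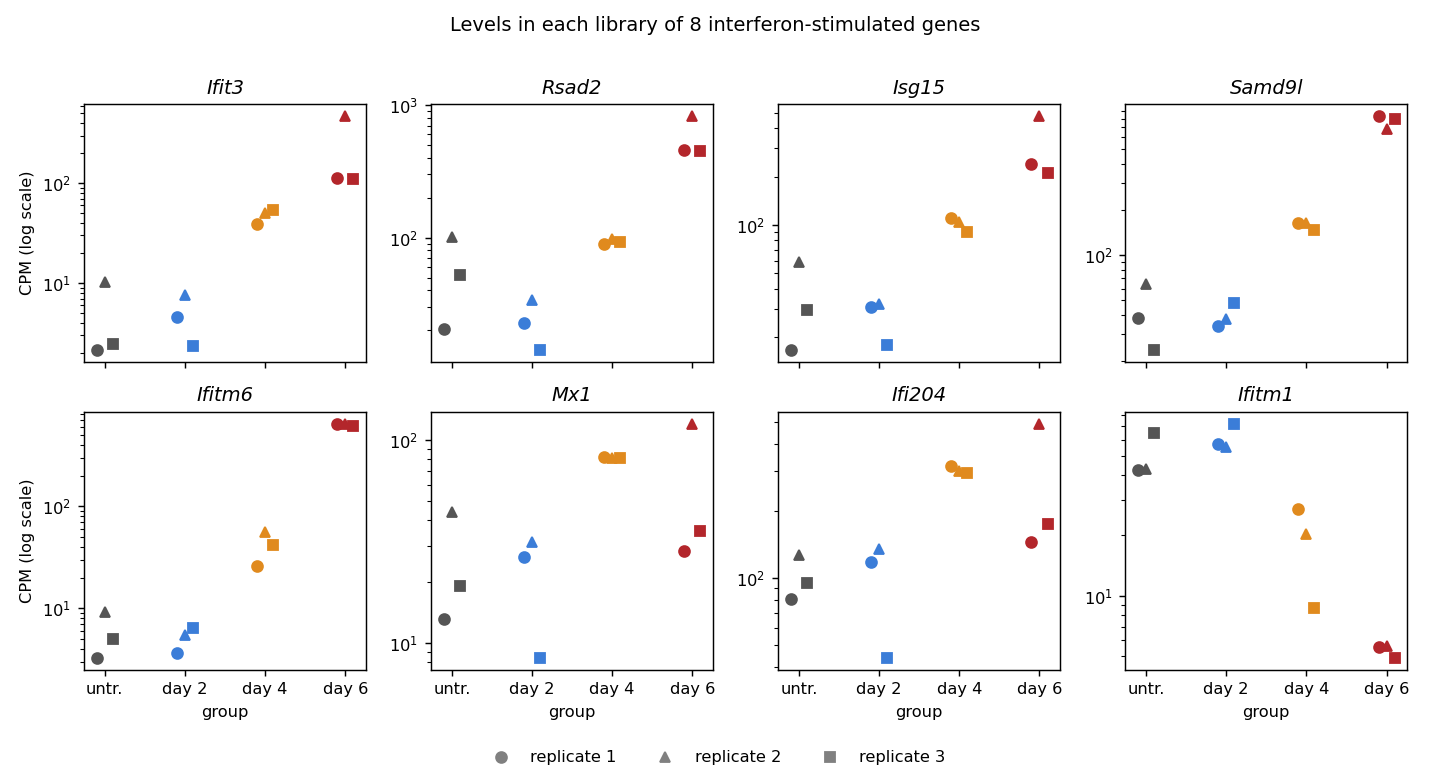
Levels in CPM on log axes (vertical) of 8 of the genes in each library of the 4 groups (horizontal), with the marker shape giving the replicate number. Samd9l and Ifitm6 rise from day 2 to day 4 and to day 6 with even day 6 libraries, day 6 replicates 1 and 3 of Mx1 and Ifi204 lie below their day 4 libraries, the second day 6 library is highest for Ifit3, Rsad2, Isg15, Mx1 and Ifi204, and Ifitm1 falls.

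The IFITM genes encode small membrane proteins that hinder the entry of viruses, and their members went opposite ways. At day 6, 3 of 4 were called higher and 1 lower. They lie within one stretch of chromosome 7, where Ifitm1 (chr7:140967429-140969827) stands between Ifitm2 (chr7:140954837-140959686) and Ifitm3 (chr7:141009590-141010744), and Ifitm6 (chr7:141015812-141016892) follows. Ifitm6 measured 3.26, 9.19 and 5.03 CPM in the untreated libraries, 3.65, 5.49 and 6.42 at day 2, 25.8, 56.0 and 42.3 at day 4, and in the day 6 libraries 643, 637 and 611. It rose from day 2 to day 4 and from day 4 to day 6 with no overlap between these libraries, and the day 6 libraries were even. With a log2 fold change of 2.82 ± 0.34, adjusted p = 8.6e-05 at day 4 and 6.75 ± 0.36, adjusted p = 5.82e-08 at day 6, or 108-fold, it had the largest rise of the 43 genes. Ifitm3 had 253, 529.8 and 331 CPM in the untreated libraries, 410.2, 415 and 301 at day 2, 839, 881 and 772 at day 4, and in the day 6 libraries 1227, 1422 and 1309. It was the most abundant of the 43 per kilobase of gene length in each group, rose at day 4 (1.16 ± 0.22, adjusted p = 0.00141) and was higher again at day 6 (1.83 ± 0.22, adjusted p = 1.88e-05). The step of Ifitm3 from day 4 to day 6 was lost without day 4 replicate 1 or 3 or day 6 replicate 2 or 3 (adjusted p = 0.0588 to 0.0847). Ifitm2 was not called at day 4 (0.05 ± 0.10, adjusted p = 0.739) and was 1.64 times the untreated level at day 6 (log2 fold change 0.71 ± 0.10, adjusted p = 3.65e-05). Ifitm1 measured 42.1, 42.6 and 65.1 CPM in the untreated libraries, 56.8, 55.1 and 71.8 at day 2, 27.0, 20.3 and 8.66 at day 4, and in the day 6 libraries 5.54, 5.63 and 4.88. All its day 4 libraries were below all earlier ones and all day 6 libraries below day 4, with 26, 35 and 25 counts at day 6. The log2 fold change was -1.42 ± 0.31, adjusted p = 0.00372 at day 4 and -3.21 ± 0.37, adjusted p = 1.55e-05 at day 6. Ifitm1 is also known as a gene of stem and progenitor cells. Reads shared between Ifitm2 and Ifitm3, which are similar in sequence, could not be told apart here.

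The promoters of Ifitm3, Ifitm1 and Ifitm6 are shown because these neighbours rose and fell side by side. The windows, from RefSeq on GRCm38.p6, reach from 250 bases before to 50 bases after the start of transcription, are read 5′ to 3′ on the gene's strand, and carry in capitals each match to the ISRE core, GAAA and GAAA with any 2 bases between them, on either strand, or, for Ifitm6, to the composite ETS-IRF core, GGAA and GAAA spaced the same way. The window of Ifitm3, chr7:141010695-141010994 on the minus strand, holds 2 matches to the ISRE core, the window of Ifitm1, chr7:140967826-140968125 on the plus strand, holds none of either core, and the window of Ifitm6, chr7:141016843-141017142 on the minus strand, holds no ISRE core and 2 composite cores. Ifitm3 was taken by the rule for printed promoters, and the others were chosen after the values were seen. The window of Ifitm2, which is not printed, holds 1 match to the ISRE core and no composite core. That gene was not called at day 4 and was 1.64 times the untreated level at day 6. Motif and direction were not tested against each other.
Ifitm3: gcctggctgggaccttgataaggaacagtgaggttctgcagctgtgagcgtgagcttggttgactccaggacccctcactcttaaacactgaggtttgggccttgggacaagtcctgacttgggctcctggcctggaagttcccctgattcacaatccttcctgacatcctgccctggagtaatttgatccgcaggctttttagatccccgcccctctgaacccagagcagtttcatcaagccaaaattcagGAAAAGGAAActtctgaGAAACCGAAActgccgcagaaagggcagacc
Ifitm1: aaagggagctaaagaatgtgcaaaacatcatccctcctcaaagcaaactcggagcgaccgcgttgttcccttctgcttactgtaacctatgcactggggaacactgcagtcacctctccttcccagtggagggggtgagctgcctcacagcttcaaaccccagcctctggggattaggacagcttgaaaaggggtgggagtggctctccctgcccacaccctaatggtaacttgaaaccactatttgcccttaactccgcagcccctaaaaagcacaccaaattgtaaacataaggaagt
Ifitm6: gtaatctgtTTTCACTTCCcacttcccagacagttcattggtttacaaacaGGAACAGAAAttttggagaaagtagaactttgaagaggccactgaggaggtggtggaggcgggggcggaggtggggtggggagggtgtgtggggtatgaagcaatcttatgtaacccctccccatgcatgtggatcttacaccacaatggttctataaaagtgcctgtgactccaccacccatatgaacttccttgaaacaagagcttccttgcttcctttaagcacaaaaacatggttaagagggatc
A match describes letters in the window and not a site in use, and a window without a match says nothing of sites elsewhere.

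Over the whole list, promoter windows were found for 32 of the 43 genes (39 windows, since some genes have several starts), and 11 genes were not matched in the table. The ISRE core was in the windows of 14 of the 32 genes (43.8%), against 3.99% of the 27025 genes with a window. The ETS-IRF core was in 8 of 32 (25%, against 3.16%), the STAT core TTCNNNGAA in 8 (25%, against 9.55%) and the PU.1 core GAGGAAGT in 3 (9.38%, against 3.69%), each sought on both strands. Matches to the ISRE and ETS-IRF cores overlapped in 1 member window, that of Stat2. Genes on the list are known for ISRE elements, so that this share describes the list and is no test. Of the 14 genes with an ISRE core 14 were called higher at day 6, with a median log2 fold change of 2.49, and of the 18 without one 15 were, with a median of 1.73. At day 4 the counts were 9 of the 14 and 13 of the 18, with medians of 1.12 and 0.83. In day 6 replicate 2 the median level was 1.76 times the other 2 libraries in the first set and 1.32 times in the second. The sites below, 22 bases each with the core in capitals and 6 bases on each side on the gene's strand, are shown for genes whose values are given above and were chosen after those were seen. Ifit3 and Ifit3b carry the same 2 sites, and the first ISRE core of Isg15 runs into further copies, so its whole window is given (chr4:156200769-156201068, minus strand).
Ifit1: cttcagTTTCACTTTCcagtct
Ifit1, second site: tctcagTTTCAGTTTCtcactg
Ifit3 and Ifit3b: ggtaagTTTCACTTTCctcttc
Ifit3 and Ifit3b, second site: agtctgTTTCAGTTTCtacttt
Ddx58: aggcagTTTCGATTTCctatgg
Rsad2: tccaacTTTCATTTTCagaaaa
Stat2: ccctggTTTCAGTTTCctttcc
Eif2ak2: cgccggGAAAACGAAAcagaag
Isg15: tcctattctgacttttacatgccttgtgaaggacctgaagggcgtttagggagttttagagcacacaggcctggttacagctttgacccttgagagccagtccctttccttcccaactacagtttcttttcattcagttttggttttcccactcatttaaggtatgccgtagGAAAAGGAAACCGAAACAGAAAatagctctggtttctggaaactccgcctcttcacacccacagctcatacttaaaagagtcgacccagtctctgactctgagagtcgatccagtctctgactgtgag
Some of these cores are the same in different genes, since Ifit1 shares the letters of both of its cores with Ifit3 and Ifit3b, and the second of them with Stat2.

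PARP9 and its partner DTX3L act together as a ubiquitin ligase, and PARP12 and PARP14 attach ADP-ribose to proteins. The 4 genes were called higher at day 6, and 2 of the 4, Parp12 and Parp14, at day 4. Parp12 measured 26.5, 60.7 and 28.4 CPM in the untreated libraries, 42.7, 57.1 and 29.8 at day 2, 147, 144 and 139.7 at day 4, and in the day 6 libraries 241, 402 and 232. The day 4 libraries were even and above all earlier ones, and day 6 replicate 2 was the highest of all. Its log2 fold change was 1.90 ± 0.34, adjusted p = 0.00144 at day 4 and 2.92 ± 0.35, adjusted p = 3.1e-05 at day 6, and the step between them, 1.02 ± 0.33, adjusted p = 0.0252, was lost without any day 4 replicate or day 6 replicate 2 (adjusted p = 0.0613 to 0.105). Parp14 went from 141 ± 69.6 CPM in untreated cells to 356 ± 16.4 and 643 ± 92.5 at days 4 and 6. Its step between these days was lost without any 1 of the day 4 or day 6 replicates (adjusted p = 0.0532 to 0.113). Dtx3l and Parp9 changed least. Dtx3l was at 207 ± 31.8 CPM in untreated cells, 150.0 ± 22.1 at day 2, 218 ± 2.89 at day 4 and 340.2 ± 69.0 at day 6, so that its level was lowest at day 2. Parp9 followed the same order, with 88.8 ± 20.1, 67.1 ± 11.1, 119 ± 4.73 and 198 ± 32.6 CPM. The day 6 change of Dtx3l was 0.72 ± 0.15, adjusted p = 0.0012. The annotated spans of Dtx3l and Parp9 overlap on chromosome 16, and the strand setting of the counting is not given, so that reads from the overlap cannot be assigned with certainty.

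The p200 genes Ifi204 and Ifi208 encode DNA-binding proteins of the PYHIN family, and 2 of 2 were called higher at day 4 and day 6, with no call for the step between (that of Ifi208 was called without day 6 replicate 3, adjusted p = 0.0424). Ifi204 measured 80.1, 126 and 94.5 CPM in the untreated libraries, 118, 134 and 43.8 at day 2, 317, 301 and 296 at day 4, and in the day 6 libraries 145, 489 and 174. The day 4 libraries were even and above all earlier ones, day 6 replicates 1 and 3 fell back between the untreated and day 4 levels, and day 6 replicate 2 was the highest of all. For Ifi204 the log2 fold change was 1.60 ± 0.49, adjusted p = 0.0225 at day 4 and 1.43 ± 0.48, adjusted p = 0.0228 at day 6. Without day 6 replicate 2 the day 6 change was 0.67 and not called (adjusted p = 0.183), and it was also lost without untreated replicate 1 or 3 (adjusted p = 0.0625 to 0.183 over the 3 omissions). The day 4 call was lost without untreated replicate 1 or 3 (adjusted p = 0.0639 to 0.0711). The 10 monocyte and macrophage markers summed to 5401, 7014 and 6911 CPM in the untreated libraries and 7252, 7393 and 5558 at day 2. At day 4 the sums were 10113, 10123 and 10790.5, and at day 6 they were 4036, 7728 and 4191. In this sum day 6 replicates 1 and 3 were below all untreated libraries, whereas in Ifi204 they were above them. Of the 10 markers, 8 were called higher and 1 lower at day 6 against untreated, as were 35.0% and 32.9% of all genes. Their part in the result was not tested. Ifi208 was scarce, with 0.425, 1.53 and 0 CPM in the untreated libraries, 0.759, 1.28 and 0 at day 2, 6.75, 9.91 and 7.93 at day 4, and in the day 6 libraries 12.4, 46.0 and 10.3. It had 3, 11 and 0 counts in the untreated libraries, and its log2 fold change of 5.10 ± 0.87, adjusted p = 0.000367 at day 6 depends on how such low counts are modelled. It was 6.63 without untreated replicate 2 and 4.07 without day 6 replicate 2, and the day 4 change, 3.60 ± 0.92, adjusted p = 0.00979, was 5.14 without untreated replicate 2. Reads of Ifi204 and Ifi208 may be shared with other members of this gene family.

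Of 4 other genes with Ifi names, 2 were called higher at day 4 and 4 at day 6. Ifi44, a cytoplasmic protein, measured 10.6, 36.2 and 13.9 CPM in the untreated libraries, 15.6, 19.8 and 5.51 at day 2, 44.7, 27.0 and 32.6 at day 4, and in the day 6 libraries 28.1, 130.4 and 41.8. Day 6 replicate 2 was far above the other 2, which lay within the range of the untreated and day 4 libraries together, and the day 6 call (1.73 ± 0.64, adjusted p = 0.0331) was lost without that library or without untreated replicate 1 or 3 (adjusted p = 0.0987 to 0.281). Its day 6 change was 0.79 without day 6 replicate 2 and 2.45 without untreated replicate 2. Ifi27, a small membrane protein of mitochondria, measured 137, 231 and 157 CPM in the untreated libraries, 209, 202 and 167 at day 2, 169, 184 and 138 at day 4, and in the day 6 libraries 421, 281 and 435. It was not called at day 4 (-0.10 ± 0.21, adjusted p = 0.73), and at day 6, alone with Ifitm2, Samd9l and Sp100 among the genes that rose, it was lowest in replicate 2. Its log2 fold change was 1.11 ± 0.21, adjusted p = 0.000545 at day 6, and its annotated span overlaps that of Ifi27l2a. Ifi47, an interferon-inducible GTPase, went from 69.0 ± 24.5 CPM in untreated cells to 144 ± 27.7 at day 4 and 164 ± 54.6 at day 6. Ifi35 went from 58.5 ± 14.9 to 96.0 ± 4.38 and 135 ± 34.2 CPM, and its day 4 call (adjusted p = 0.0286) was lost without untreated replicate 1 or 3 or any day 4 replicate (adjusted p = 0.0519 to 0.101).

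Of 6 nuclear and other genes, 2 were called higher at day 4 and 3 at day 6. Xaf1, an antagonist of the apoptosis inhibitor XIAP, measured 70.5, 146 and 84.6 CPM in the untreated libraries, 115, 115 and 66.1 at day 2, 248, 219.6 and 224 at day 4, and in the day 6 libraries 509.7, 631 and 491. All day 4 libraries were above all earlier ones and all day 6 libraries above day 4, and the log2 fold change was 1.20 ± 0.26, adjusted p = 0.00391 at day 4 and 2.44 ± 0.27, adjusted p = 1.23e-05 at day 6. Sp100, a protein of nuclear bodies, had 214, 270.3 and 249 CPM in the untreated libraries, 266, 271 and 206 at day 2, 419.9, 465 and 456 at day 4, and in the day 6 libraries 823, 794 and 820.2. It was among the steadiest of the 43 between replicates and rose 1.83-fold at day 4 and 3.32-fold at day 6 (adjusted p = 9.01e-05 and 1.07e-07). Trim30a went from 234 ± 58.9 CPM in untreated cells to 382 ± 15.8 at day 4, which was not called, and 526 ± 164 at day 6 (adjusted p = 0.00295). Phf11d, Tor3a and Lgals3bp had no call against untreated cells. Tor3a, an ATPase of the endoplasmic reticulum, measured 98.3, 142 and 106 CPM in the untreated libraries, 123, 124 and 99.0 at day 2, 172, 157 and 168 at day 4, and in the day 6 libraries 109, 214 and 112. Its day 4 libraries were above all earlier ones and its day 6 replicates 1 and 3 within the untreated range. Without day 6 replicate 2 the day 4 change of Tor3a, 0.52, was called (adjusted p = 0.00391). Phf11d went from 13 ± 9.43 to 31.4 ± 4.86 and 33.4 ± 29.5 CPM, and Lgals3bp, a secreted glycoprotein, from 185 ± 48.8 to 242 ± 8.95 and 224 ± 76.3. The changes of Phf11d were called at both days without untreated replicate 2 (2.04 and 2.15, adjusted p = 0.0454 and 0.0215), and its day 6 change of 1.38 was 0.33 without day 6 replicate 2. With library totals as the scale, or without day 6 replicate 2, the day 6 changes of Tor3a and Lgals3bp were below 0, with no call.

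The genes also differed in how far the 2 high libraries stood out. Across the 43 genes the log2 ratio of untreated replicate 2 to its partners and that of day 6 replicate 2 to its partners had a Pearson correlation of 0.474 (Spearman 0.407), as a description over genes that share the same libraries, and across all 12057 tested genes it was 0.0591. The log2 ratio of day 2 replicate 3 to its partners had a correlation of -0.717 with that of day 6 replicate 2 and of -0.474 with that of untreated replicate 2, where all tested genes gave -0.224 and 0.0354. In day 6 replicate 2 the excess was largest for Ifit3 (4.21 times the other 2), Phf11d (4.11), Ifi208 (4.05), Mx1 (3.75) and Ifi44 (3.73). It was near 1 or below for Ifitm6 (1.02), Sp100 (0.967), Ifitm2 (0.847), Samd9l (0.836) and Ifi27 (0.658). Samd9l and Ifitm6 were thus high in untreated replicate 2 (2.08 and 2.22 times) and not in day 6 replicate 2. Ifitm1, the gene that fell, was the one member lower in untreated replicate 2 than the mean of its partners (0.795 times).

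**Figure D5:**
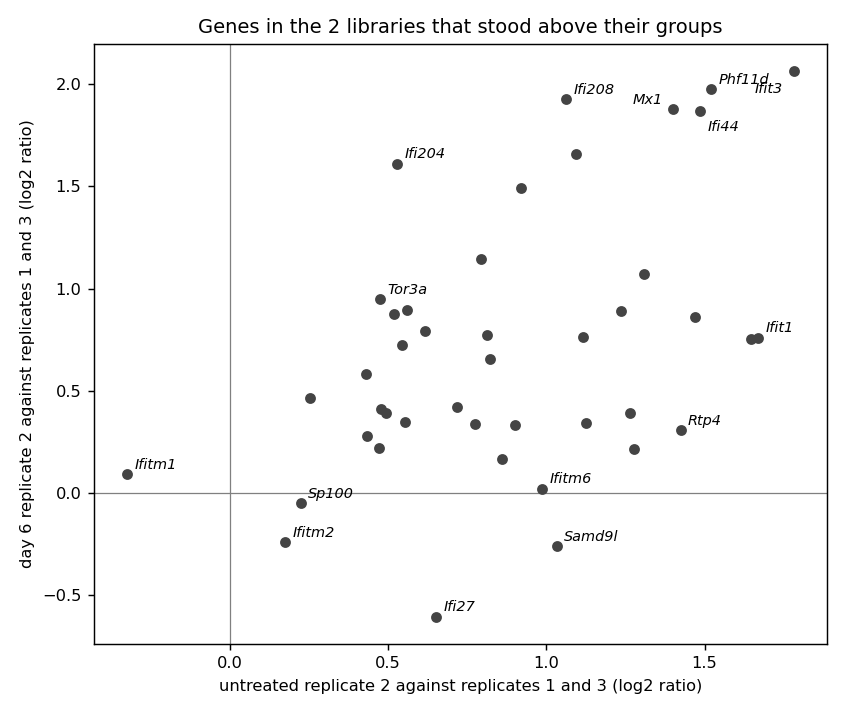
Each point is 1 of the 43 genes, with the log2 ratio of untreated replicate 2 to the mean of its 2 partners on the horizontal axis and that of day 6 replicate 2 on the vertical axis, computed on CPM + 1. Most points lie right of and above 0, with Ifit3, Phf11d, Mx1 and Ifi44 at the upper right, Ifi27 and Samd9l below 0 and Ifitm1 left of 0.

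Per kilobase of gene length, the order of levels changed over the 6 days. In untreated cells Ifitm3 was the highest with 573 CPM per kilobase, followed by Ifitm2 with 421, Bst2 with 195 and Ifi27 with 166. On this scale the untreated libraries of Ifitm3 and Ifitm2 overlap, and those of Bst2 and Ifi27 do too. At day 6 the order was Ifitm3 with 2036, Ifitm6 with 1165, Ifitm2 with 690.3, Isg15 with 408 and Sp100 with 377 CPM per kilobase, and Ifitm1 was the lowest with 6.37. Ifitm6, at 10.8 CPM per kilobase in untreated cells, thus moved to the second place. The levels of Isg15 and Sp100 at day 6 do not differ beyond the spread of Isg15 between its libraries.

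The rest of the pathway was read from lists of genes that are not among the 43. None of 21 interferon genes (type I, type II and type III) was tested, since none had enough counts. Of these, 14 had 0 counts in all 12 libraries, and the 21 together reached 0.976 CPM in day 6 replicate 3 and at most 0.456 in the other libraries, too few counts for a test. Of 9 receptor and Janus kinase genes 6 were called higher and 1 lower at day 4, and 8 higher and 1 lower at day 6. The receptor gene Ifnar1 went from 80.0 ± 7.42 CPM to 134 ± 13.2 at day 4 and 129 ± 20 at day 6, and Ifnar2 from 128 ± 13.6 to 198 ± 7.69 and 197 ± 10.5, both called higher at both days. Ifngr1, a receptor chain for type II interferon, was called lower at each day, at day 2 with an adjusted p of 0.0119 that reached 0.0844 with 1 library left out, and had a log2 fold change of -1.66 ± 0.11, adjusted p = 8.67e-08 at day 6. Irf8, a myeloid interferon regulatory factor, measured 599, 559.6 and 973 CPM in the untreated libraries, 821, 613 and 484.6 at day 2, 658, 493 and 651 at day 4, and in the day 6 libraries 102, 235 and 99.6, and was called lower at day 6 (log2 fold change -2.28 ± 0.36, adjusted p = 0.000224). The OAS and RNase L system, which cuts RNA when double-stranded RNA is sensed, had 9 genes, with 7 called higher at day 4 and 9 at day 6. Oas3 measured 13.9, 66.0 and 22.0 CPM in the untreated libraries, 35.2, 45.6 and 26.6 at day 2, 189, 194 and 185 at day 4, and in the day 6 libraries 872, 1066 and 770.4, a log2 fold change of 4.73 ± 0.49, adjusted p = 1.08e-05 at day 6, which was 5.65 without untreated replicate 2. Without day 6 replicate 2 the day 6 change of Oas3 was 4.59. Interferon-inducible GTPases were mixed, with 8 of 13 tested higher and 0 lower at day 4 and 8 higher and 2 lower at day 6. Genes of class I antigen presentation were higher in 6 of 12 and lower in 1 at day 4, and higher in 8 of 12 and lower in 0 at day 6. Of 17 tested sensors and adaptors upstream of interferon 10 were higher at day 4, and 12 were higher and 2 lower at day 6. Among 7 negative regulators 3 were higher at day 4, and 4 were higher and 1 lower at day 6, where Socs1, an inhibitor of the Janus kinases, went from 1.97 ± 1.07 to 8.65 ± 1.47 CPM. The shares of all genes called, 22.1% higher and 20.2% lower at day 4 and 35.0% higher and 32.9% lower at day 6, apply to these counts as well.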

How the data were processed

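Bulk RNA sequencing covered 12 libraries of GFP-sorted AML246 cells, 3 in each of 4 groups. The deposited files hold the authors' raw counts and gene lengths of 27179 Entrez identifiers, not normalised. The submitters' processing notes name the build mm10 and the tools limma 3.22.0, edgeR 3.8.2, featureCounts and CASAVA 1.8.2 without saying what each did. Strand setting and aligner were not given in the sources used here. Symbols and positions came from RefSeq on GRCm38.p6 (25275 identifiers) and GENCODE (18). The 1886 identifiers without a symbol held 0.487% to 1.06% of a library's counts and were kept in the library sizes.

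The counts were fitted in R 4.3.3 with edgeR 4.0.16 over all 12 libraries and 12057 genes (filterByExpr, TMM factors, glmQLFit with robust dispersion, group as the only term, 8 residual degrees of freedom, biological coefficient of variation 14.3%). Each day was tested against untreated, and day 4 against day 2 and day 6 against day 4, with glmQLFTest, two-sided, adjusted by Benjamini-Hochberg over all genes tested and called at 0.05. Standard errors are the log2 fold change divided by the root of F. The 43 genes, the role groups, the other gene lists and the tests were chosen with earlier results of these data known, so that none of their patterns is independent support. Values in every library were given for the largest called changes of each role group, and further genes were picked after their values were seen. The other genes of the 43 were given by group means or counts. Promoter motifs were counted in RefSeq windows. Ratios of 1 library to its partners are of CPM, and their log2 values and correlations of CPM + 1.

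Tested on simulated data with 200 planted genes and 11646 genes tested, the fit recovered at day 6 against untreated 34% of 1.5-fold, 78% of 2-fold, 90% of 4-fold and 96% of 8-fold changes, with 12 calls among the unchanged genes. The planted changes were up and down in equal numbers. The simulation held no shift in scale as at day 6 and no library standing apart for many genes. It therefore cannot speak to recovery or false calls under these. The alternatives were DESeq2 1.42.0, limma 3.58.1 voom, RLE, upper-quartile and library-total scaling, the replicate number as a block, glmTreat with a 1.5-fold threshold, no filter on low counts or at least 5 CPM in 3 libraries, separate fits of the groups in each comparison, each library left out, and, chosen after seeing the data, untreated replicate 2 and day 6 replicate 2 left out together.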

Additional observations from a re-analysis of the deposited data

How the results depend on the processing

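The counts of the 43 genes called were within 1.5 times their main value under DESeq2, limma voom, RLE and upper-quartile scaling, no filter, the stricter filter and separate fits of the groups in each comparison. They moved further under the following settings. With a 1.5-fold threshold in glmTreat 14 genes were called higher at day 4 against untreated, 9 at day 4 against day 2 and 15 at day 6 against day 4. With library totals 17 were called higher at day 6 against day 4, as were 1331 of all 12057 genes, where TMM gave 2851. For glmTreat, the libraries left out and the replicate block, no share of all genes is given here. Those counts are therefore not read as a result about the 43 genes. Leaving out 1 library at a time gave 22 to 34 genes higher at day 4 against untreated, 34 to 40 at day 6 against untreated, 19 (without day 2 replicate 3) to 35 at day 4 against day 2 and 22 to 29 at day 6 against day 4. It gave 0 to 1 genes lower at day 2 and 1 to 2 lower at day 6 against day 4, the upper value without day 6 replicate 2 in each case. With untreated replicate 2 and day 6 replicate 2 both left out, 2 genes were called higher at day 2 and 3 lower at day 6 against day 4. The causes were not tested.

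Among the changes at day 4 and day 6 against untreated, the direction changed only in some that were not called. At day 4 against untreated, Ifitm2 had a log2 fold change of -0.046 and Dtx3l one of -0.0119 with upper-quartile factors, and -0.0705 and -0.0349 with library totals. With 1 library left out, Ifitm2 ranged from -0.00836 (without untreated replicate 3) to 0.107 and Dtx3l from -0.0421 (without untreated replicate 1) to 0.169. Ifi27 at day 4 ranged from -0.25 to 0.15, with values above 0 without untreated replicate 2 and without day 4 replicate 3 (0.0097), and had 0.15 with untreated replicate 2 and day 6 replicate 2 both left out. At day 6 against untreated, Tor3a had -0.15 and Lgals3bp -0.21 with library totals. With 1 library left out, Tor3a ranged from -0.0672 to 0.51 and Lgals3bp from -0.0391 to 0.52, the lower value of each without day 6 replicate 2 and the upper without untreated replicate 2. Direction also changed at day 2 and in the step from day 4 to day 6. At day 2 without untreated replicate 2, Ifit1 moved from -0.49 to 0.33 and Ifit3 from -0.10 to 1.02, with no call. Rsad2 stayed below 0 there (-0.63). Many other genes, Ddx58 among them (from -0.08 to 0.50), also moved above 0 at day 2 without untreated replicate 2, with no call. With day 6 replicate 2 left out as well, the day 2 change of Ddx58 was 0.50 and was called higher. From day 4 to day 6 without day 6 replicate 2, Mx2 moved from 0.28 to -0.47 and Bst2 from 0.14 to -0.23, with no call. The causes were not tested. Under library totals 2283 of all genes were called higher and 6764 lower at day 6 against untreated, where TMM gave 4224 and 3967.

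With the replicate number as a replicate block, 35 genes were higher at day 4 and 40 at day 6 against untreated, 36 at day 4 against day 2, 29 at day 6 against day 4 and 0 at day 2. Over all tested genes the numbers did not pair the samples. Residuals of the 18 pairs of libraries with the same number in different groups had a mean correlation of 0.00567 (-0.172 to 0.290). Of the 12 libraries, 4 correlated best with a library of the same number. For the 43 genes, however, replicate 2 was the highest of its group in 42, 32, 18 and 38 genes from untreated to day 6. With the block the day 4 change of Ifit1 was called (adjusted p = 0.00388). Whether the numbers pair the samples for these 43 genes was not tested. Depth limits the interferon genes, Ifi208 and Ifit3b most, whose untreated counts were few. The intervals implied by counts cover counting error only.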
